A study of Mus musculus with 6 samples.

Results

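The genes studied here are Notch1, Notch3 and Notch4, which encode 3 Notch receptors, and Dll4, Jag1 and Jag2, which encode 3 Notch ligands, measured in endothelial cells sorted from mouse brain and in the suspension that was loaded on the sorter. They were taken by gene symbol and are 6 of the 10989 genes in the deposited table; all 6 passed its minimum count in both fractions. RNA was sequenced from 3 Positive libraries, made from cells gated as EGFP positive, CD31 positive and CD11b negative, and from 3 Input libraries, made from the dissociated brain. Every library comes from mice with Tie2-cre and the NuTRAP reporter, a transgene that Cre switches on and that tags ribosomes with EGFP, and all titles read WT; no age or sex was among the labels used. The Tie2 (Tek) promoter drives Cre in endothelial cells and is also known to act in cells of the blood lineage. Input contains endothelial cells as well, so each fold change sets the sorted cells against a mixture that includes them. In such bulk libraries a lower share of cells of one type and less RNA per cell cannot be told apart.

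Notch receptors are cell surface proteins that are cut when a ligand on a neighbouring cell pulls on them. The part released inside the cell enters the nucleus, joins the DNA-binding protein Rbpj and switches on genes of the Hes and Hey families. In blood vessels, Dll4 and Notch1 hold back the sprouting of tip cells and support arterial identity, Notch4 is largely restricted to endothelium, and Notch3 is the receptor of pericytes and vascular smooth muscle, where Jag1 on the endothelium is one of its partners.

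The replicate numbers are 1222, 1223 and 1227 in both fractions. Summed estimated counts ran from 4772866 to 23525401 in Positive and from 4814966 to 52283556 in Input, and both libraries of 1223 are the shallow ones. The lowest estimated count of any of the 6 genes was 116, for Dll4 in Input 1223, and outside 1223 it was 680.4. All 10 endothelial markers tested were higher in Positive (median log2 fold change 2.88), and every tested marker of astrocytes (8), mature oligodendrocytes (6), neurons (5) and microglia (6) was lower; of these, 4 neuronal and 2 astrocyte markers were kept in the table through Input alone, which favours a fall. Levels are in CPM, that is, counts divided by library size after TMM adjustment. All 4 perivascular macrophage markers tested were also called higher in Positive (median log2 fold change 1.75), but unevenly. They summed to 1855, 663 and 261 CPM in the Positive libraries (1222, 1223 and 1227), while the Input sums lay between 211 and 279 CPM. The sum in Positive 1227 thus lay within the Input range.

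All 6 Notch genes were higher in the Positive fraction, and for each of them every Positive library lay above every Input library. Which cells of that fraction carried each transcript was not tested. Dll4 rose most, 8.03-fold between fraction means, followed by Notch4 (6.57-fold), Jag2 (5.98-fold), Jag1 (3.34-fold), Notch1 (2.70-fold) and Notch3 (1.61-fold). Among all 10989 genes, 26.1% were higher in Positive and 29.4% were lower (edgeR's quasi-likelihood test, Benjamini-Hochberg adjusted p below 0.05), and 31.8% had every Positive library above every Input library. The median log2 fold change was 2.16 over the 6 genes and 0.03 over all genes tested. The count of 6 became 5 without both libraries of 1227, where Notch3 did not pass (log2 0.58, adjusted p = 0.070).

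**Figure D1:**
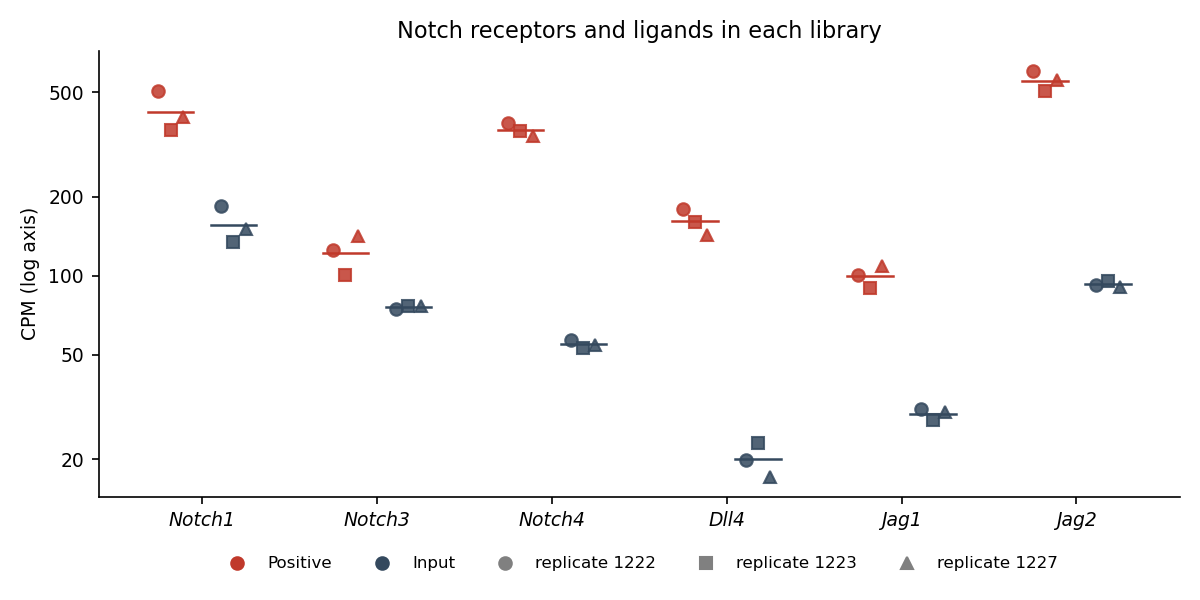
Level of each gene in CPM (log axis) in the 3 Positive libraries (red, left of each pair) and the 3 Input libraries (dark, right); marker shape gives the replicate number and the line the fraction mean. In each of the 6 genes the red points lie above the dark ones, with the widest separation for Dll4 (8.03-fold) and the narrowest for Notch3 (1.61-fold).

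The promoters of the largest riser of each kind, Dll4 among ligands and Notch4 among receptors, are shown with that of Notch3, the smallest riser, because Notch4 holds another motif than Dll4 and Notch3. Sequences are from RefSeq (GRCm38.p6), 250 bases before to 50 bases after the annotated start, read on the gene's strand, at chr2:119325534-119325833 on the + strand for Dll4, chr17:34564045-34564344 on the + strand for Notch4 and chr17:32166841-32167140 on the - strand for Notch3. Capitals mark AGGAAG, a form of the site bound by ETS factors, and GGGCGG, the GC box, on either strand, so that CTTCCT and CCGCCC mark the opposite strand.
Dll4: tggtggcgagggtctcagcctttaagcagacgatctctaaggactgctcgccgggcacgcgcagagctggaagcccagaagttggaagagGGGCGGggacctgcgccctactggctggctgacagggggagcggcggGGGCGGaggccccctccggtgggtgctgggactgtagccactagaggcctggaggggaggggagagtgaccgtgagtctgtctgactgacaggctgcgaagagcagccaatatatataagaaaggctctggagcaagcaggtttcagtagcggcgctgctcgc
Notch4: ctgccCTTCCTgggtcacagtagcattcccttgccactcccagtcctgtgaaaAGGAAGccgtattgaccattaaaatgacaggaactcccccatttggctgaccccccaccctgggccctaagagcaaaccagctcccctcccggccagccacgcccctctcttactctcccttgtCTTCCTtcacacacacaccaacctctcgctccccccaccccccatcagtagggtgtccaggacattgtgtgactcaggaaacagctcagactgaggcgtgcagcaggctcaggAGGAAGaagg
Notch3: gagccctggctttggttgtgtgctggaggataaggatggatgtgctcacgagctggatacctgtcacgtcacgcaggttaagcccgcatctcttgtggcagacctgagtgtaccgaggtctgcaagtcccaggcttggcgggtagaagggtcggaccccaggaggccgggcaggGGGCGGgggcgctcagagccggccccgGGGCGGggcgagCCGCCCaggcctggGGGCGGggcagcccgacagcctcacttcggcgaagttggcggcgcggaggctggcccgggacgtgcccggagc

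The Notch4 promoter held 4 matches to AGGAAG and none to GGGCGG. Of 32851 RefSeq promoters of the same length, 35.4% held AGGAAG at least once and 0.432% at least 4 times. Of the 10733 that belong to genes in the deposited table, 33.4% and 0.317% did. The cut of 4 is the count in Notch4 itself. The motif was chosen after the sequences were seen, so these shares are no test of Notch4. The Notch3 promoter had the opposite makeup, with 4 matches to GGGCGG and none to AGGAAG, and Dll4 had 2 matches to GGGCGG. The GC box lies in 35.7% of all promoters and in 63% of those of genes in the table, and 4 of the 6 Notch genes held it. Jag2 and Notch1 each held 5 matches to GGGCGG, 2 of those in Jag2 overlapping each other, and Jag1 held none of the motifs searched. The other motifs searched on both strands were TGGGAA, the core that Rbpj binds (in 22.5% of promoters of genes in the table), CCGGAA, another ETS form (25.2%), ACAAAG, a SOX form (13.9%), and TATAAA, the TATA box (6.89%), and none of these motifs lies in the 6 windows. CpG dinucleotides numbered 63 in the Jag2 promoter, 25 in Notch3, 23 in Notch1, 22 in Jag1, 17 in Dll4 and 5 in Notch4, against a median of 21 over the promoters of genes in the table and 7 over all promoters. These matches describe letters in a window and are no evidence of binding.

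Among the receptors, Notch4 (chromosome 17, 34564295 to 34588543, mm10) changed most. Positive libraries 1222, 1223 and 1227 held 383, 357 and 341 CPM of it, and the Input libraries of the same numbers 57.0, 52.9 and 54.5 CPM. The 3 libraries of each fraction lay close together and the fractions were far apart, with a log2 fold change of 2.71 ± 0.12 (SE; edgeR adjusted p = 2.7e-06). This is near the median of 2.88 for the 10 endothelial markers.

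Notch1 (chromosome 2, 26457902 to 26503822), the receptor through which Dll4 limits sprouting, measured 506, 359.9 and 404 CPM in the Positive libraries (1222, 1223 and 1227) and 184, 135 and 151 CPM in their Input counterparts. Replicate 1222 was highest and 1223 lowest in both fractions, so the spread within a fraction (17.7% of the mean in Positive and 16.1% in Input) largely cancelled within a number. The log2 differences within 1222, 1223 and 1227 were 1.46, 1.42 and 1.42. The log2 fold change was 1.43 ± 0.18 (edgeR adjusted p = 0.00017), and with the replicate number as a block its standard error was 0.08.

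Notch3 (chromosome 17, 32120893 to 32166852), the mural cell receptor, reached 125, 101 and 142 CPM in the Positive libraries of 1222, 1223 and 1227, while the Input libraries gave 74.8, 76.9 and 76.6 CPM. Input was nearly level (1.48% of the mean), while Positive was uneven (16.9%), and the difference within a number was log2 0.74 in 1222, 0.39 in 1223 and 0.89 in 1227. The log2 fold change was 0.69 ± 0.15 (edgeR adjusted p = 0.0041); it is this call that ended without both libraries of 1227.

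Mural markers moved beside Notch3 in the Positive libraries. Of 10 pericyte markers other than Notch3, 9 were higher in Positive (median log2 1.29; 1 of the 10, Higd1b, was kept through Positive alone), and they summed to 1654, 1292 and 2069.7 CPM in the Positive libraries (1222, 1223 and 1227), while the Input sums lay between 678 and 808 CPM. Of 5 smooth muscle markers tested, none rose and 1, Tagln, fell (log2 -1.07 ± 0.35; list median 0.36); their sum was 278, 228 and 318 CPM in Positive libraries and 194, 411 and 276 CPM in Input libraries. Notch3, the pericyte sum and the smooth muscle sum were all lowest in Positive 1223 and highest in Positive 1227. The oligodendrocyte sum had this order too (815, 587 and 1279 CPM in Positive 1222, 1223 and 1227; 17683 to 25341 CPM in Input), so the order is not particular to mural markers. The fall of Tagln did not pass without Positive 1222 (log2 -1.01), Positive 1223 (-1.05), Input 1223 (-0.64) or Input 1227 (-1.11), nor by limma on the deposited log2 values (-0.89); without Input 1222 2 of the 5 fell, and without Input 1223 2 rose. Every tested marker of both lists met the table's minimum count in Positive, so none could be at 0 there. Listed markers that are not in the table could not be tested. The part of mural cell RNA in the level of Notch3 was not tested.

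**Figure D2:**
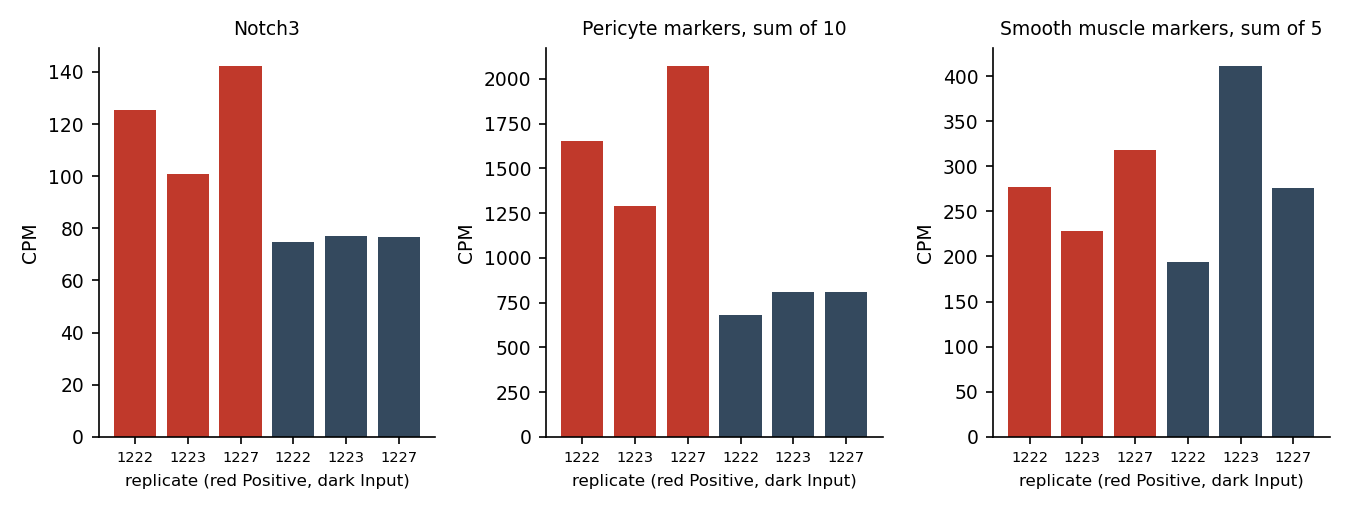
Notch3, the sum of 10 pericyte markers and the sum of 5 smooth muscle markers in CPM (linear axes from 0), one bar per library, Positive in red at the left and Input in dark at the right of each panel. Among the red bars replicate 1223 is lowest and 1227 highest in all 3 panels; the pericyte sum is higher in every Positive library, and the smooth muscle sums of the fractions overlap.

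Among the ligands, Dll4 (chromosome 2, 119325784 to 119335666), the delta ligand of arterial and tip cell endothelium, reached 179.7, 161 and 144 CPM in the Positive libraries of 1222, 1223 and 1227, while the Input libraries gave 19.9, 23.2 and 17.2 CPM. All Positive values lay far above Input. The log2 fold change was 3.02 ± 0.17 (edgeR adjusted p = 3.3e-06).

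Jag2 (chromosome 12, 112908590 to 112929495), a ligand of the jagged type, had levels of 603, 506 and 556 CPM in the Positive libraries (1222, 1223 and 1227) and 92.03, 95.5 and 90.98 CPM in the Input libraries. The Input values differed little (2.54% of their mean), and the log2 fold change was 2.58 ± 0.13 (edgeR adjusted p = 2.9e-06). Jag1 (chromosome 2, 137081451 to 137116520), which activates Notch3 on neighbouring mural cells in mice, measured 100.4, 89.8 and 109 CPM in the Positive libraries (1222, 1223 and 1227) and 31.0, 28.2 and 30.4 CPM in the Input libraries. Its log2 fold change was 1.74 ± 0.14 (edgeR adjusted p = 1.4e-05), so both jagged ligands rose and the sizes differed.

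**Figure D3:**
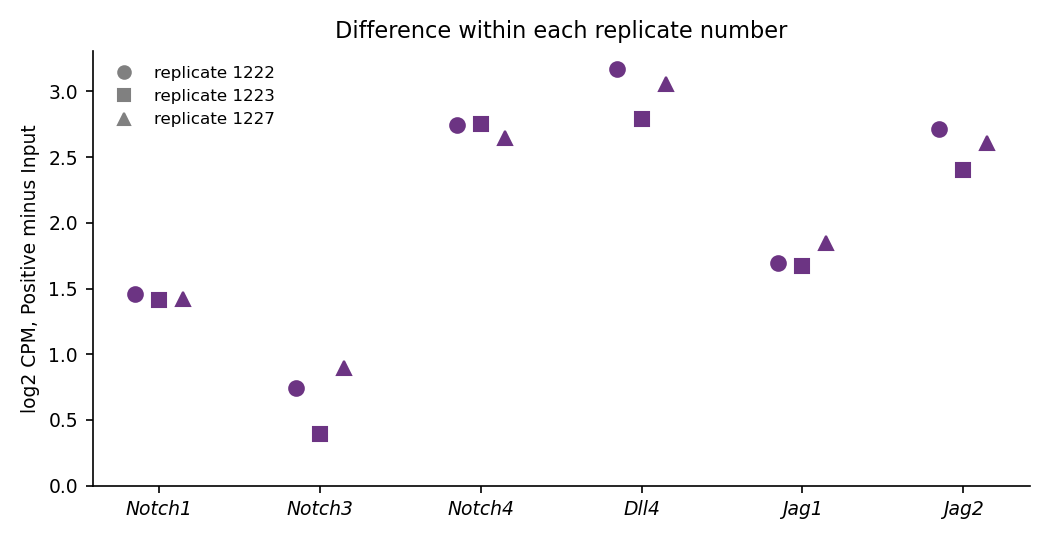
Difference in log2 CPM between the Positive and the Input library of the same replicate number, one point per number and gene. All 18 points lie above 0; Notch1 has nearly the same difference in the 3 numbers (1.42 to 1.46), and Notch3 runs from 0.39 in 1223 to 0.89 in 1227.

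Ratios between 2 genes within a library show which of them rose unequally, without need of gene length. Notch3 had 0.33, 0.28 and 0.42 counts per Notch4 count in Positive 1222, 1223 and 1227, against 1.31, 1.45 and 1.41 in Input. The balance between these receptors was thus turned over, by a log2 difference of -2.04. Notch3 to Notch1 was also lower in Positive, by -0.75, while Jag2 to Jag1 was higher by 0.84 and Dll4 to Jag1 by 1.27. In all 4 ratios the fractions did not overlap. The two-sided exact permutation test gave p = 0.10 for each, and 0.10 after adjustment over the 4 ratios, which is the smallest value that 3 against 3 libraries allow.

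Dividing CPM by the length of the longest coding transcript in GENCODE M21 puts the genes on a rough common scale. Which transcripts were present was not tested, so the order and the shares below depend on this choice of length. In Positive, Jag2 was highest at 109 ± 9.59 CPM per kb (SD, n = 3), with every library above the next gene. Notch4 (54.7 ± 3.21), Notch1 (44.6 ± 7.88) and Dll4 (43.0 ± 4.81) followed, and neighbours in that order overlapped. Jag1 (17.8 ± 1.74) and Notch3 (15.3 ± 2.59) came last and overlapped each other, with every Dll4 library above every Jag1 library. In Input, Jag2 (18.2 ± 0.46) and Notch1 (16.5 ± 2.66) led and overlapped, then came Notch3 (9.49 ± 0.14) above Notch4 (8.32 ± 0.31), and Dll4 and Jag1 overlapped at the bottom (5.36 ± 0.80 and 5.32 ± 0.27).

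With Notch2 counted in, Notch4 made up 45.8% ± 3.17 of receptor CPM per kb in Positive and 17.9% ± 1.54 in Input (SD, n = 3 each). Notch1 held 37.0% ± 2.54 in Positive and 35.2% ± 1.54 in Input, ranges that overlapped. Notch3 held 12.8% ± 2.20 in Positive and 20.5% ± 2.79 in Input. Notch2 held 4.30% ± 1.31 in Positive and 26.4% ± 3.34 in Input. Among the ligands, with Dll1 counted in, Jag2 made up 61.7% ± 1.31 in Positive and 58.8% ± 1.23 in Input. Dll4 held 24.5% ± 2.08 in Positive and 17.3% ± 2.11 in Input, and Jag1 held 10.1% ± 0.98 in Positive and 17.2% ± 1.19 in Input. Apart from Notch1, the ranges of the fractions did not overlap for any of these 7 genes, and Jag2 led the ligands in both fractions.

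**Figure D4:**
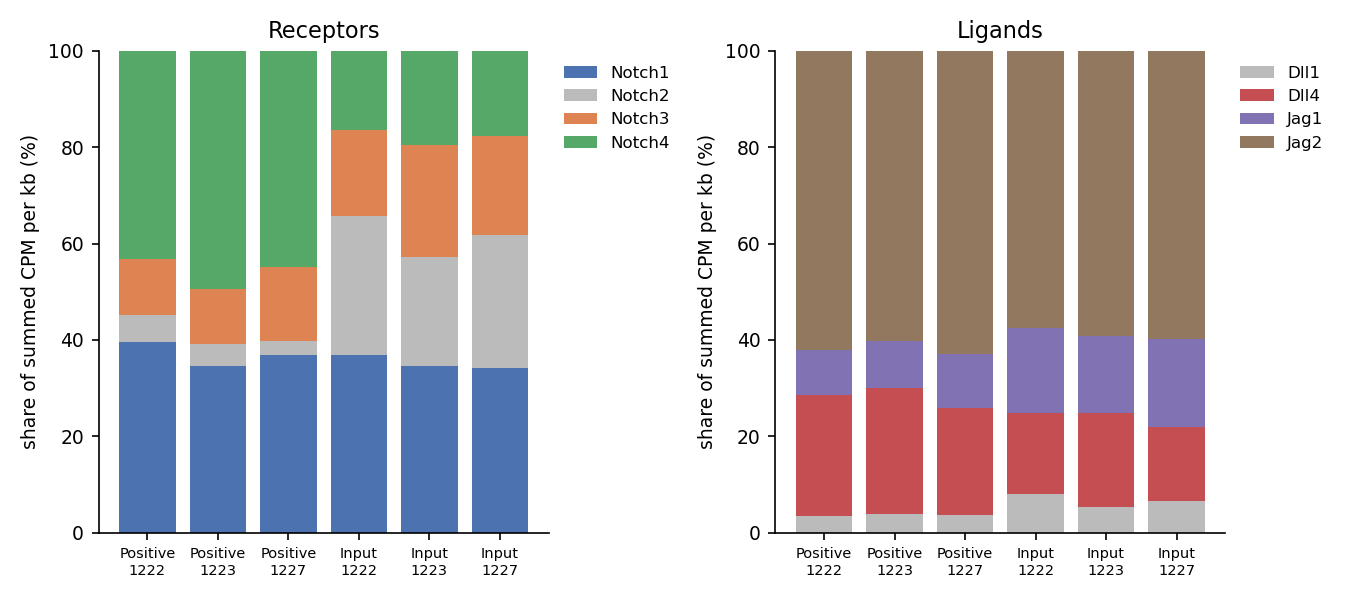
Share of each receptor (left) and ligand (right) in the summed CPM per kb of its kind, in percent, one bar per library with the 3 Positive libraries left of the 3 Input libraries. Notch4 takes 43.3 to 49.4% of the receptor sum in Positive and 16.5 to 19.5% in Input, while Jag2 holds 60.3 to 62.9% of the ligand sum in Positive and 57.5 to 59.8% in Input.

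Notch2, the fourth mouse receptor, and other ligands were listed apart from the 6 genes. Notch2 fell, with 77.1, 52.5 and 34.9 CPM in the Positive libraries (1222, 1223 and 1227) and 159, 97.7 and 136 CPM in the Input libraries (log2 -1.26 ± 0.29, edgeR adjusted p = 0.0063). In Positive its order over the numbers was that of the perivascular macrophage sum given above and of the microglial marker sum. The latter was 1897, 1109 and 1079 CPM there and 4923 to 9361 CPM in Input. Notch4 and Dll4 had this order in Positive too, so it is not particular to markers of these cells. The perivascular macrophage markers were higher in Positive and the microglial markers lower. The part of RNA from these cells was not tested. Dll1, a delta ligand, was low and rose to 23.0 ± 0.40 CPM in Positive, against 7.33 ± 1.51 CPM in Input (log2 1.62 ± 0.22); it was kept in the table through Positive alone, which favours a rise. Egfl7, a secreted endothelial protein reported to bind Notch receptors, rose by log2 2.77 ± 0.17. The Notch binders Cntn1 (log2 -3.40 ± 0.16) and Dner (log2 -4.47 ± 0.28) fell. Dner was kept through Input alone, which favours a fall. These 5 calls held under all 15 alternative settings, and 4 of the 9 genes on this list were not analysed here.

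The rest of the pathway did not move as a block: over 6 lists, 19 of 53 tested genes were higher, 16 lower and 18 did not pass, with a median log2 fold change of 0.09. Of the 53, 7 were kept in the table through one fraction alone (6 through Input, 1 through Positive); among the other 46, 18 were higher and 11 lower (median 0.31). Over all 10989 genes, 26.1% were higher and 29.4% lower. The 16 of 53 that were lower thus lie near the share of all genes. All genes include the 2480 kept through 1 fraction alone, so these shares are no match for the set of 46. Among 9 genes that cut ligands and receptors, 4 rose and 2 fell (median 0.08). The sheddases Adam10 (log2 1.13 ± 0.12) and Adam17 (0.77 ± 0.15) and the proprotein convertase Furin (1.42 ± 0.12) rose in every setting, while the gamma-secretase subunit Aph1b (-1.33 ± 0.26, also kept through Input alone) and the beta-secretase Bace1 (-1.46 ± 0.15) fell. Of 5 glycosylation genes, Pofut1, which adds the fucose that Fringe enzymes extend, rose by log2 0.79 ± 0.16 and Mfng, manic fringe, by 1.42 ± 0.13, and Lfng, lunatic fringe, fell (-0.58 ± 0.14; adjusted p = 0.065 by limma on the deposited log2 values).

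Of 14 genes of endocytosis and turnover, 2 rose and 5 fell (median log2 -0.14), beside 26.1% higher and 29.4% lower among all genes. Dtx1 (-3.47 ± 0.21), 1 of those that fell, was kept through Input alone. Dtx3l rose by log2 1.70 ± 0.19 and the ubiquitin ligase Nedd4 by 0.41 ± 0.14, and Itch (-0.12 ± 0.16) and Numb (0.54 ± 0.24) did not pass. Nedd4 did not pass in 8 of 15 settings, among them without Positive 1222 (log2 0.35), Positive 1223 (0.42), Positive 1227 (0.45) or Input 1227 (0.32), which left 1 gene that rose, as did no scaling (0.25) and leaving out both libraries of 1223 (0.47) or of 1227 (0.36). In turn 4 rose without Input 1222 and in the limma fit of the authors' log2 values, and 5 with the replicate number as a block, Numb among them (log2 0.59).

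Of 13 genes of the nuclear complex, 7 rose and 1 fell (median log2 0.49), beside 26.1% higher and 29.4% lower among all genes. But only Maml1, a coactivator of the complex (log2 1.32 ± 0.18), and Hdac1 (0.86 ± 0.13) rose in all 15 settings. Rbpj itself did not pass (0.26 ± 0.19), and the acetyltransferase Kat2b fell (-0.74 ± 0.15). The 7 became 3 without Positive 1222, 4 without Positive 1223, 3 without Input 1223 and 2 without Input 1227, and also 3 without both libraries of 1223, 2 without both of 1227 and 2 with no scaling beyond the library total. Ncor1 (0.63 ± 0.23), a corepressor, did not pass without any one of the 4 libraries just named (log2 0.41, 0.73, 0.49 and 0.55 in the same order) or with no scaling (0.47), and failed in 7 of 15 settings in all. Snw1 (0.37 ± 0.12) failed in 8 of 15, among them without Positive 1223 (0.34), Positive 1227 (0.35), Input 1222 (0.39) or Input 1227 (0.39) and with no scaling (0.21).

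Of 7 target genes tested, 2 rose and 4 fell (median log2 -0.63), beside 26.1% higher and 29.4% lower among all genes. Hes5 (-3.66 ± 0.29) and Hey2 (-1.04 ± 0.26), 2 of those that fell, were kept through Input alone, which favours a fall; of the other 5 targets 2 rose and 2 fell (median 0.09). Hes1 rose to 86.1 ± 23.9 CPM in Positive, against 29.0 ± 5.77 CPM in Input (log2 1.58 ± 0.25, edgeR adjusted p = 0.00069). Hey1 rose by log2 0.54 ± 0.14 but did not pass in 4 of 15 settings, without Positive 1227 (0.49), without both libraries of 1222 (0.51) or of 1227 (0.60), and with no scaling (0.39), each of which left 1 target that rose. Nrarp, which encodes a feedback inhibitor of Notch, fell (-0.63 ± 0.19) and did not pass without Positive 1222 (-0.50) or Input 1227 (-0.49), without both libraries of 1227 (-0.55), or by limma on the deposited log2 values (-0.54), each of which left 2 targets that fell, nor without both libraries of 1222 (-0.49), which left 1.

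**Figure D5:**
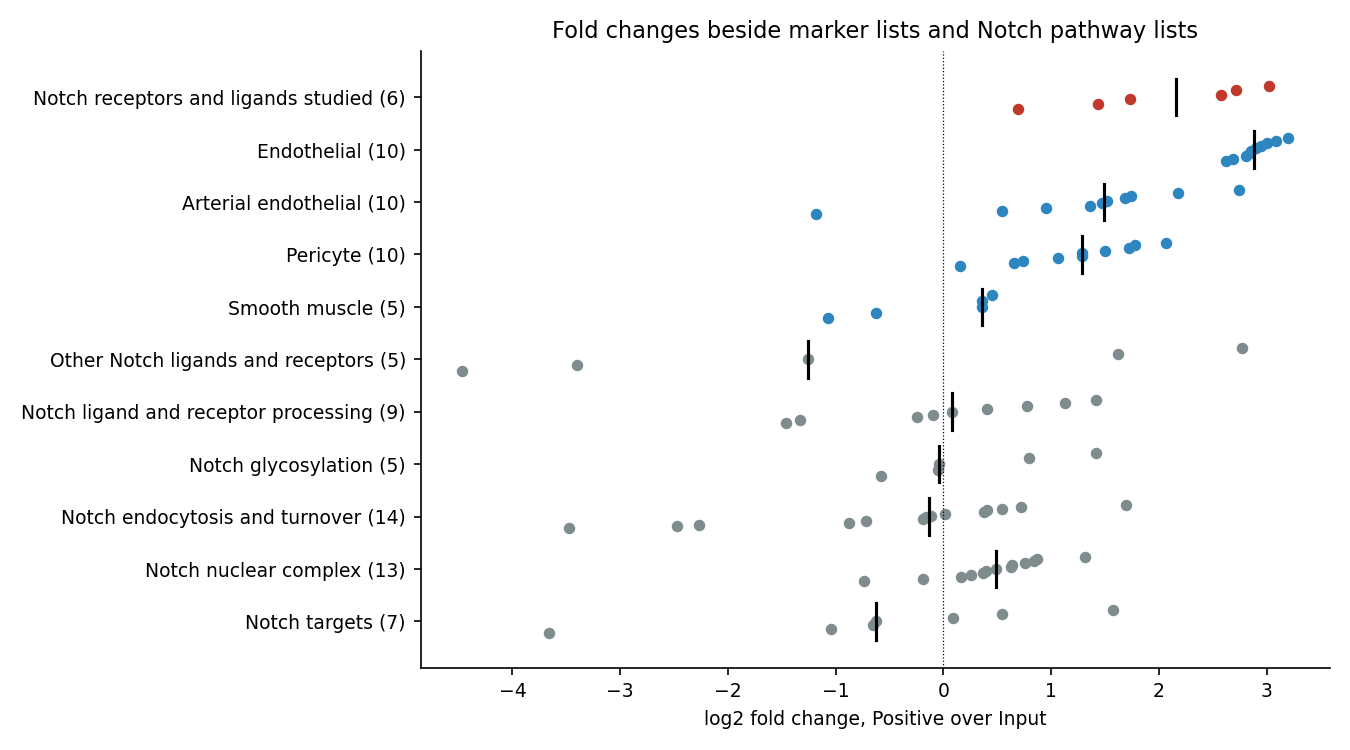
Log2 fold change of Positive over Input for the 6 Notch receptors and ligands (red), 4 marker lists (blue) and 6 Notch pathway lists (grey); each point is a gene, the black bar is the list's median, and the number of tested genes is in brackets. The red points run from 0.69 (Notch3) to 3.02 (Dll4), Dll4 alone of them above the endothelial median of 2.88.

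Arterial endothelial markers gave a further yardstick, since Dll4, Jag1 and Jag2 are known from arteries: 8 of 10 rose and 1, Stmn2, which neurons also express, fell (median log2 1.49); no marker of this list fell without both libraries of 1223. Their sum was 1250.1, 1283 and 1510.3 CPM in the Positive libraries (1222, 1223 and 1227), an order that none of Dll4, Jag1 and Jag2 shared. The log2 fold changes of Dll4 (3.02), Jag2 (2.58) and Jag1 (1.74) all lay above the arterial median. Of 6 venous markers tested 4 rose (median 1.76).

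The genes whose profiles over the 6 libraries were most like that of each of the 6 were found from the root mean square distance between log2 CPM profiles, each centred on its own mean, among 9877 genes with a mean of at least 10 CPM. For Notch4 they were Arhgap29 (distance 0.055), Dennd3 (0.063) and Ablim1 (0.070), and for Jag2 they were Rhbdf2 (0.070), Gimap6 (0.075) and Pde2a (0.075). For Dll4 they were Clic5 (0.080), Slc7a1 (0.089) and Slc19a3 (0.092), and for Jag1 they were Snrk (0.057), Vamp5 (0.059) and Tnks1bp1 (0.071). For Notch1 they were Lrrfip1 (0.063), Uba7 (0.065) and Baz2a (0.069), and for Notch3 they were Ipmk (0.055), Becn1 (0.067) and Kbtbd11 (0.072). Among the 6 genes themselves Notch4 and Jag2 were closest (0.104) and Notch3 and Dll4 farthest apart (1.19). The fraction sets most of these profiles.

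In GENCODE M21, genes on the opposite strand overlap one end of Notch1 (0610009E02Rik and Gm13568), Notch3 (Gm17276) and Dll4 (Gm14207) and extend beyond it, and the pseudogene Gm20462 lies within Notch4. The library kit keeps strand, and the labels used do not state whether the counting did, so reads of such partners may be among the counts.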

How the data were processed

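RNA-seq libraries of 3 Positive and 3 Input samples (directional total RNA kit, per the labels) were analysed from one table. The authors deposited estimated counts per gene and log2 normalised values, without pooling; per the file headers the table retains genes that reach a raw value of 50 in every library of either condition. The build is mm10 and DESeq is named per the submitters' processing notes; for aligner, counter and strand use nothing is stated in the labels used. The authors' log2 values served as an alternative.

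Estimated counts were rounded and tested over all 10989 genes with edgeR 4.0.16 under R 4.3.3. Settings were TMM scaling, a filterByExpr minimum count of 10 (0 genes removed), a quasi-likelihood test of fraction alone, prior count 2, Benjamini-Hochberg adjustment and a threshold of 0.05. CPM uses TMM-adjusted library sizes; the SE is the log2 fold change over the square root of F. The fit was tested on simulated data in which a small part of the genes changed, evenly up and down. That test does not cover scaling where as many genes differ as here. Alternatives were RLE scaling, no scaling, no filter, a replicate block, DESeq2 1.42.0, limma 3.58.1 on the deposited log2 values, and leaving out libraries or numbers; marker lists were counted under them after the data were seen. Same-numbered libraries deviated together from their fraction means (correlation across genes 0.45 in 1222, 0.23 in 1223 and 0.30 in 1227), so the numbers pair the libraries; the SEs and p-values given leave this out unless the block is named. The labels tie no number to an animal; p-values thus reflect the spread between these libraries, which may be technical. Depth varied 10.95-fold, and low genes in 1223 carry more counting error.

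The 6 genes, the lists and the rule for named genes (the 6, their 3 nearest profiles, and up to 3 of the most abundant genes per pathway list plus those called against its main direction) were chosen with earlier results of these data known. Dner, Rbpj, Maml1, Hdac1, Tagln and Stmn2 fall outside the rule and were named after their values were seen; 1 gene that the rule names is not reported here. The promoters printed and the motifs searched were chosen after the sequences and fold changes were seen.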

Additional observations from a re-analysis of the deposited data

How the results depend on the processing

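Over 15 alternative settings, 89 of 90 combinations of gene and setting kept the call and direction of the 6 Notch genes; the exception was Notch3 without both libraries of 1227 (log2 0.58), and the cause was not tested beyond the loss of libraries. The number of the 6 that rose was 5 to 6 when libraries were left out. Over the whole table, 1741 to 2755 genes were higher and 2393 to 3207 lower when libraries were left out, the lowest of both without both libraries of 1227; these settings have fewer samples. With the replicate number as a block, 3298 genes were higher and 3482 lower, the 6 Notch genes all rose (log2 0.69 for Notch3 to 3.02 for Dll4), and it changed no call among them. Without scaling, the median log2 fold change of all genes was -0.13, against 0.03 with TMM; 2165 genes were then higher and 3666 lower, and Notch3 had log2 0.54. Removing no genes at the low end changed nothing, since the filter removed 0. Leaving out both libraries of a number kept the sign of the ratios: -2.18 to -1.88 for Notch3 to Notch4, -0.87 to -0.62 for Notch3 to Notch1, 0.75 to 0.89 for Jag2 to Jag1 and 1.17 to 1.35 for Dll4 to Jag1. The shallow 1223 libraries hold the lowest count of the 6 genes (116, Dll4 in Input), and without Input 1223 the SE of Dll4 was 0.17, as with it.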
